A study of Mus musculus with 24 samples.

Results

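The replication-dependent histone cluster genes are the genes whose GENCODE M21 symbol begins with Hist1h, Hist2h, Hist3h or Hist4h, and 65 of the 49315 genes listed in the count tables met this rule once 3 pseudogenes had been left out. Of the 65 genes, 6 encode H1, 18 H2A, 16 H2B, 12 H3 and 13 H4, and 52 lie in the Hist1 cluster on chromosome 13, 10 in Hist2 on chromosome 3, 2 in Hist3 on chromosome 11 and 1 in Hist4 on chromosome 6. The genes were measured by RNA sequencing in primary astrocytes, which are glial cells isolated from the cortex of wild type C57BL/6J mouse embryos at embryonic day 18.5 and grown in culture. The cells were exposed to 0, 0.1 or 2 Gy X-rays and lysed 6 h or 24 h later, which gave 6 groups (0 Gy, 0.1 Gy and 2 Gy at each time) of 4 libraries with the replicate numbers 1 to 4. No group carries a transgene or another agent, the cells of all embryos of a dam were pooled, and every library was made from polyadenylated RNA. The study used the sequencing to look for pathways that X-rays might activate in astrocytes.

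Histone cluster genes supply the core histones H2A, H2B, H3 and H4 and the linker histone H1 that package newly made DNA, so their transcription and the stability of their mRNAs are coupled to S phase. Their mRNAs are unlike those of other genes in that most end at a short stem-loop instead of a poly(A) tail. The stem-loop is bound by SLBP and the precursor is cut behind it with the help of the U7 snRNP. Several of the genes also have polyadenylation signals further downstream, and the longer polyadenylated forms are known from cells that have left the cycle or have differentiated. A library of polyadenylated RNA therefore counts only part of the histone mRNA of a cell.

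The stem-loop is the sequence that separates these mRNAs from others, so it is shown for the members on which the results below turn. The motif searched was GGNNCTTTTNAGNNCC on the sense strand of the GENCODE M21 transcripts, behind the coding sequence. In the lines below the 16 bases of the stem-loop are in capitals, between 5 flanking bases on each side, written 5′ to 3′ as DNA; each lies in the 3′ UTR.
Hist1h1c (GRCm38, chr13:23739512-23739527, plus strand): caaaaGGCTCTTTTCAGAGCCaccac
Hist1h1e (chr13:23621782-23621797, minus strand): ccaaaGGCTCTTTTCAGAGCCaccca
Hist3h2a (chr11:58955172-58955187, plus strand): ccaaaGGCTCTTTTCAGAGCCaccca
Hist1h2be (chr13:23585531-23585546, minus strand): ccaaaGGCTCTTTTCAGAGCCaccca
Hist2h3c2 (chr3:96238485-96238500, minus strand): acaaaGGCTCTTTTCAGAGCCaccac
Hist1h3c (chr13:23745047-23745062, minus strand): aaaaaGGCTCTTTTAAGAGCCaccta
Hist1h3e (chr13:23561903-23561918, minus strand): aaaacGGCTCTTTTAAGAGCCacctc
Hist1h4h (chr13:23531458-23531473, plus strand): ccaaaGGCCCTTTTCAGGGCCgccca
Hist1h4i (chr13:22040966-22040981, minus strand): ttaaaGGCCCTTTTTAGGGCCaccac
Hist1h4d (chr13:23581950-23581965, plus strand): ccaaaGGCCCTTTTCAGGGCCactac

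A stem-loop of this form was found behind the coding sequence in 42 of the 65 genes, and the same motif in a transcript of 0.137% of 21836 other protein-coding genes, among them Hist1h2bh, Hist1h2bm and H2afx. It took 6 forms, of which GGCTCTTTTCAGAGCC was the most frequent with 24 genes. The first stem bases followed the histone family. All 31 stem-loops of H1, H2A, H2B and H3 genes began with GGCT, whereas 9 of the 11 stem-loops of H4 genes began with GGCC and 2 with GGTC. The stem-loop began 21 to 58 bases behind the stop codon. For the other genes no match says only that these letters are not in the annotated transcript, which for several of them ends at the stop codon.

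The annotated 3′ ends fell into 3 kinds. In 26 genes the longest transcript ran more than 100 bases past the stem-loop, or carried the poly(A) signal AATAAA in a transcript without a stem-loop (extended end). In 21 genes it stopped within 100 bases of the stem-loop (stem-loop end), and in 18 genes neither was found. AATAAA placed 5 of the 26 genes in the first kind. Among genes with a stem-loop it occurred behind the stem-loop in 12 of the 21 with an extended end and in 0 of the 21 with a stem-loop end, where by definition few bases were searched. Extended ends were found in 4 of 6 H1 genes, 3 of 18 H2A genes, 7 of 16 H2B genes, 5 of 12 H3 genes and 7 of 13 H4 genes. Of the 26 genes with an extended end, 14 were counted over other bounds than those of GENCODE M21. Hist1h1d, Hist1h1e, Hist1h2ac and Hist1h4d, for instance, were counted only up to between 25 and 28 bases past the stem-loop. Hist1h1c was counted over all 840 bases that follow its stem-loop. Hist1h2bc, the other abundant gene, was counted over chr13:23684199-23692488, and its annotated transcript holds no stem-loop of this form but an AATAAA.

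Promoters were taken from RefSeq (GRCm38.p6, 250 bases before to 50 after the start) and matched for 60 of the 65 genes. Their starts were at most 99 bases from the counted start except for Hist1h2be, whose counted row begins at a distant upstream exon. On both strands, CCAAT was found in 85% of the 60 promoters against 37.4% of all 32851 promoters in the table, TATAAA in 58.3% against 13.6%, the octamer ATTTGCAT in 21.7% against 1.74%, and the E2F-type motif TTTCGCGC in 15% against 0.323%. The related motif TTTCCCGC occurred in 1.67% against 1.07%. CCAAT was present in every promoter of the H1, H2A, H2B and H3 genes but in 3 of 12 H4 promoters. The octamer was limited to 7 H2A and 6 H2B promoters, and TTTCGCGC to 5 H2A and 4 H2B promoters. Many H2A and H2B genes are divergent neighbours with a common promoter, so these matches are partly the same bases counted for both genes. These matches are a description of the letters and not of binding.

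Among the 24 libraries the total count lay between 14742855 and 38194800, and the 65 genes received 278930 counts in all. The unit of level is CPM, counts divided by the TMM-normalised library size, and levels of different genes are compared as CPM per kb of counted length. The counts were very unevenly spread. Hist1h1c, which encodes the linker histone H1.2, took 51.5% of the histone counts and Hist1h2bc, an H2B gene, 24.4%. The 10 most abundant genes took 92% of the counts. By family, H1 took 54%, H2B 32.9%, H4 6.5%, H2A 3.37% and H3 3.3%.

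**Figure D1:**
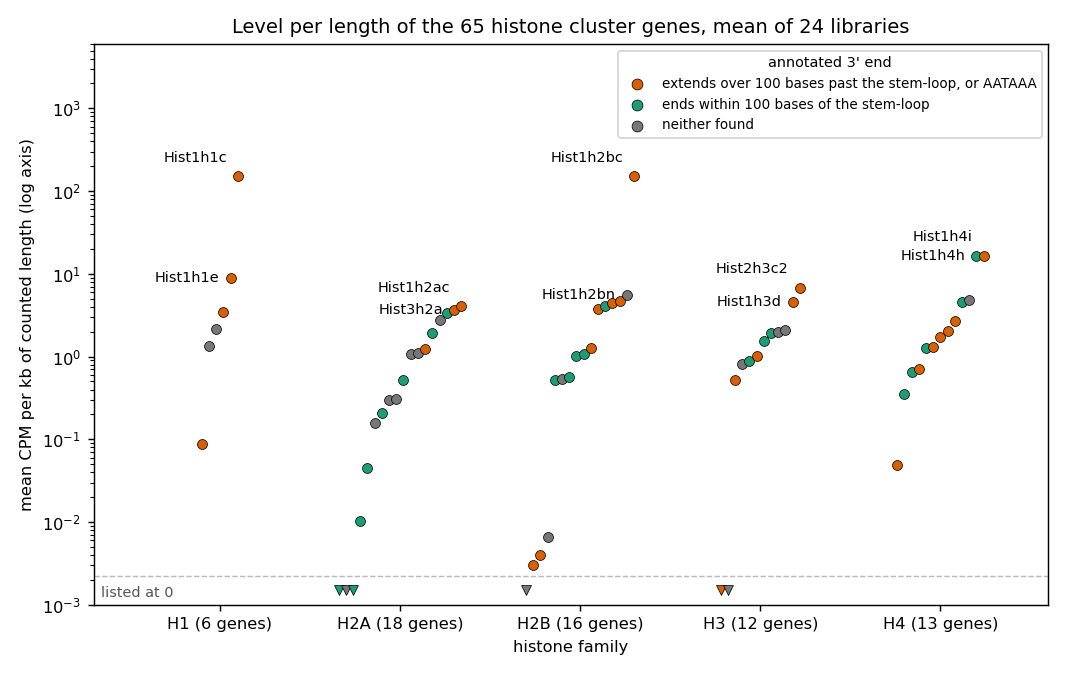
Mean level per length (CPM per kb of counted length, log axis, mean of 24 libraries) of each histone cluster gene, by family on the x axis and coloured by the kind of annotated 3′ end. Hist1h1c and Hist1h2bc at 152 CPM per kb stand far above the next gene at 16.6, and the 6 triangles are the genes at 0 counts.

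Per length, Hist1h1c (152 CPM per kb) and Hist1h2bc (152 CPM per kb) were followed at a wide distance by the H4 genes Hist1h4i (16.6) and Hist1h4h (16.4), the H1 gene Hist1h1e (8.81) and the H3 gene Hist2h3c2 (6.78). The most abundant H2A genes per length were Hist1h2ac (4.07) and Hist3h2a (3.65), and the second H2B gene was Hist1h2bn (5.51). Only 4 genes exceeded 10 CPM per kb and 38 exceeded 1 CPM per kb. The median of the 18743 protein-coding genes with any count was 3.1 CPM per kb, and 18 of the 65 histone genes lay above it. Genes with an extended 3′ end held 93.5% of the histone counts and had a median of 2.37 CPM per kb, against 0.886 for those with a stem-loop end and 0.947 for those with neither. Hist1h1c and Hist1h2bc, both with an extended end, alone held 75.9% of the histone counts. When the 42 genes with a stem-loop were divided by the bounds used for counting instead, the 13 genes counted more than 100 bases past the stem-loop had a median of 1.26 CPM per kb, as had the other 29 genes. With this division the medians of both sets were equal. The 13 genes held 175517 counts, of which 143649 were those of Hist1h1c, and the 29 genes held 22338 counts. The testis variants Hist1h1t, Hist1h2ba and Hist1h2aa were at or near 0, with 36, 1 and 0 counts over the 24 libraries.

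**Figure D2:**
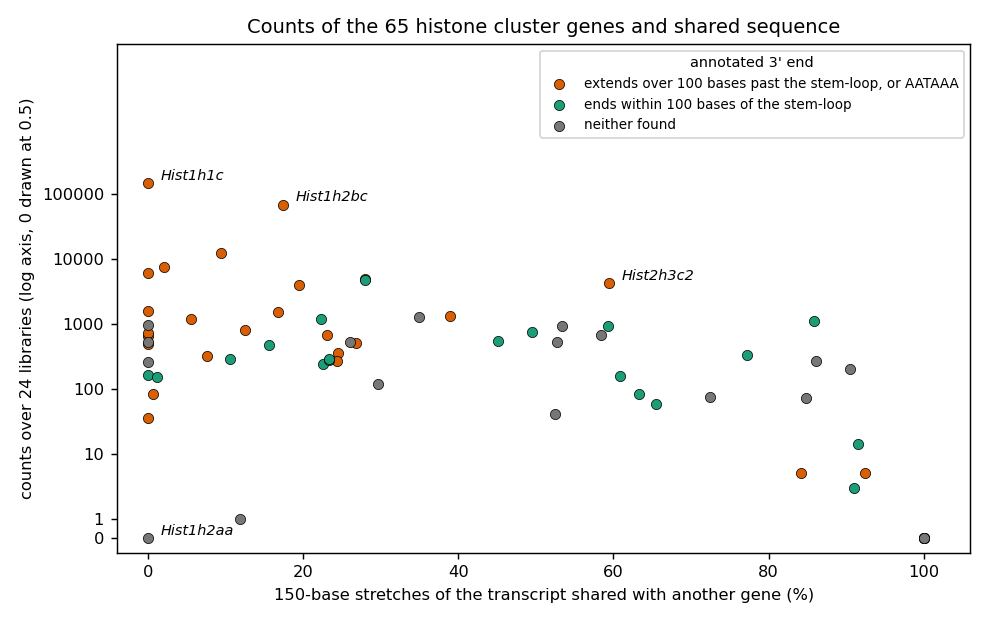
Counts over 24 libraries (log axis, 0 drawn at 0.5) of the 65 genes against the percentage of 150-base stretches of their transcripts that also occur in a transcript of another gene, coloured by the kind of annotated 3′ end. The 5 genes at 100% all had 0 counts, and the points with the highest counts lie at the left.

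Many of these genes are near-identical copies, and reads that fit several copies are often not counted. In 24 genes more than 50% of all 150-base stretches (the read length) also occurred in a transcript of another gene. These 24 genes had a median of 73.5 counts over the 24 libraries, against 543 counts for the 41 others. Hist2h2aa1, Hist2h2aa2, Hist2h2bb, Hist2h3b and Hist2h3c1, all in the Hist2 cluster, shared every stretch and were at 0 counts in every library. The sixth gene at 0, Hist1h2aa, shared none. A count of 0 allows a level of up to 0.0785 to 0.203 CPM, depending on the library, but for the copies in Hist2 it cannot be told apart from reads lost to the neighbour. Levels of the copies are therefore uncertain. This holds for Hist2h3c2, with 59.4% shared, more than for Hist1h1c and Hist1h4d with 0%, Hist1h4i with 2.1%, Hist1h3c with 15.6%, Hist1h2bc with 17.4% and Hist1h3e and Hist1h4h with 26.8% and 28%. In 12 genes no stretch was shared. Most H2A genes overlap a small antisense gene and Hist3h2a also overlaps Trim17 on its own strand, and as the use of strand in counting is not given in the sources used here, their reads cannot be told apart.

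The libraries of one group differed by more than sampling noise. In the 6 h groups the summed level of the 65 genes was highest in replicate number 2 and lowest in replicate number 3 at each dose. At 0 Gy and 6 h it was 402, 656, 289 and 459 CPM in replicate numbers 1 to 4, at 0.1 Gy 355, 669.5, 297 and 397 CPM and at 2 Gy 425, 692, 285 and 403 CPM. Replicate number 2 also stood apart in cell type markers. The summed level of 8 microglial markers was 222.6 to 247 CPM in its libraries and 1146 to 1637 CPM in all others, while the sum of 8 fibroblast and vessel markers ranged from 286 to 1407 CPM. Most astrocyte markers were high in every library (Gfap at least 343 CPM, Aqp4 at least 333 CPM), but S100b (highest 5.67 CPM) and Gjb6 (highest 0.449 CPM) were low or at 0. Of the 8 neuronal markers Stmn2 and Map2 were at 181 CPM and 104.9 CPM or more, while Rbfox3 and Snap25 were at 0 in some libraries, and of the 8 oligodendrocyte lineage markers Olig1 was at 151 CPM or more and Mog was at or near 0. In bulk RNA, fewer cells of a type and less RNA per cell cannot be told apart.

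At 24 h after 2 Gy the linker histone gene Hist1h1c and the H4 genes Hist1h4i and Hist1h4h rose in the fit that paired the libraries by replicate number (edgeR quasi-likelihood test with Benjamini-Hochberg adjustment over all genes), and they were higher in 4 of 4 pairs. These 3 are 7.89% of the 38 histone genes that passed the filter on low counts, which is close to the 6.53% of all 15892 tested genes called higher in this fit. None was called lower, beside 6.69% of all genes. The labels do not state that libraries of one number share an isolation of cells, and the pairing rests on their correlation. In the fit without pairing no histone gene, and no gene at all, passed an adjusted p under 0.05 (background 0% of 15892 genes in each direction), while 5 of the 38 tested histone genes and 3.59% of all genes had an unadjusted p under 0.05.

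Hist1h1c measured 241, 195, 156 and 212 CPM in replicate numbers 1 to 4 at 0 Gy, 232, 268, 226 and 254 CPM at 0.1 Gy and 303, 298, 324 and 249.8 CPM at 2 Gy. All 4 libraries at 2 Gy lay above all 4 at 0 Gy. The log2 fold change of 2 Gy against 0 Gy was 0.56 ± 0.13 (SE, n = 4) with pairing by number (edgeR adjusted p = 0.0297) and 0.55 ± 0.18 without it (edgeR adjusted p = 0.94).

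Hist1h4i measured 6.97, 7.45, 9.44 and 9.61 CPM at 0 Gy, 5.79, 15.4, 11.9 and 17.6 CPM at 0.1 Gy and 11.6, 12.6, 20.5 and 11.6 CPM at 2 Gy. The lowest library at 2 Gy was above the highest at 0 Gy, and at 0.1 Gy the values spread over both ranges. At 2 Gy against 0 Gy the log2 fold change was 0.73 ± 0.15 with pairing (edgeR adjusted p = 0.02) and 0.75 ± 0.24 without (edgeR adjusted p = 0.94).

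Hist1h4h, whose annotated transcript ends 46 bases behind the stem-loop, measured 5.13, 4.05, 5.51 and 6.11 CPM at 0 Gy, 4.35, 7.12, 5.26 and 9.5 CPM at 0.1 Gy and 8.24, 7.04, 12.2 and 8.98 CPM at 2 Gy. Again the groups at 0 and 2 Gy did not overlap. Its log2 fold change of 2 Gy against 0 Gy was 0.80 ± 0.14 with pairing (edgeR adjusted p = 0.0143) and 0.81 ± 0.23 without (edgeR adjusted p = 0.769).

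**Figure D3:**
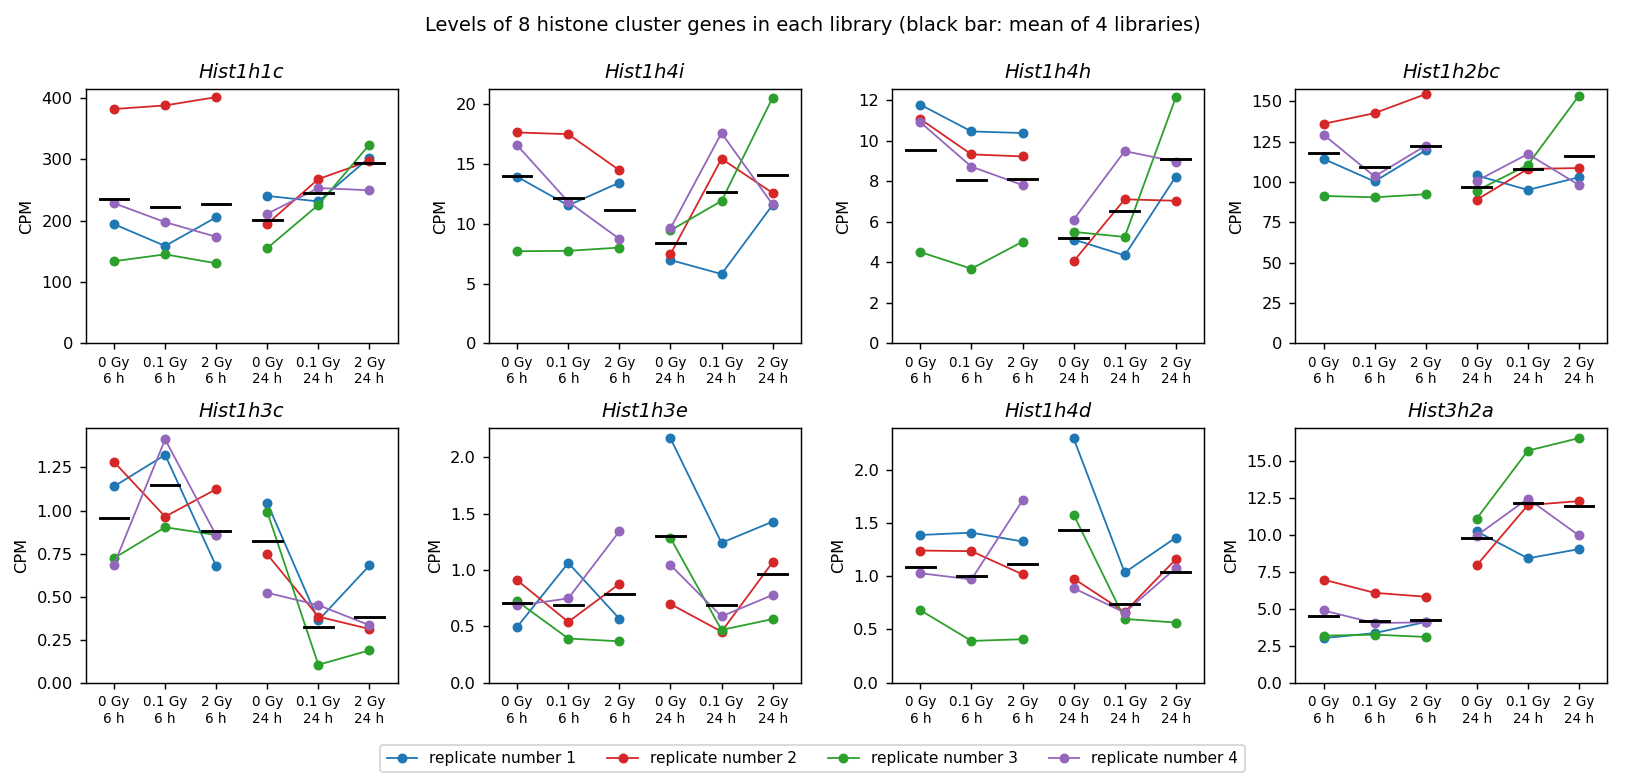
Level (CPM, linear axis from 0) of 8 histone cluster genes in each of the 24 libraries by dose and time, with lines joining libraries of one replicate number within a time and black bars for the mean of 4 libraries. At 24 h all points at 2 Gy lie above those at 0 Gy for Hist1h1c, Hist1h4i and Hist1h4h, and all points of Hist1h3c at 0.1 Gy lie below those at 0 Gy.

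With pairing 5 of the 38 histone genes had an unadjusted p under 0.05, beside 32.3% of all genes. The groups did not overlap for the same 3 genes, while 0.944% of all genes did not overlap in this direction and 2.01% in the other, where no histone gene was found. A further correction for GC content and gene length left 0 of the 3 calls, with log2 fold changes of 0.54, 0.50 and 0.32 for Hist1h4i, Hist1h4h and Hist1h1c (adjusted p = 0.0504, 0.0722 and 0.121, edgeR with the replicate block), and 1.82% of all genes were then called higher and 1.69% lower. Leaving out replicate number 1 or 2 left 0 calls, beside 0.892% and 0.432% of all genes in either direction. Leaving out 3 gave 5 calls, beside 33.1%, and leaving out 4 gave 1, beside 1.54%. DESeq2 with the block called the same 3 of 19 genes to which it gave an adjusted p, beside 7.81% of all genes higher and 9.2% lower, and DESeq2 without the block called 0 of 24, beside 0.0141% higher and 0.711% lower.

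Markers of cell types differed in the same libraries. The summed level of the 8 oligodendrocyte lineage markers was 492, 566, 519 and 339.5 CPM at 0 Gy and 576, 813, 594 and 354 CPM at 2 Gy, higher at 2 Gy in 4 of 4 pairs, while 0 of the 6 tested markers were called and their median log2 fold change was -0.04 with pairing. Of 9 tested astrocyte markers Gfap and Aldh1l1 rose with pairing, by 0.36 and 0.34 on the log2 scale (edgeR adjusted p = 0.0426 and 0.0376), and 0 fell. Of 8 microglial markers Trem2 rose by 0.50 (0.0158) and P2ry12 had -0.52 (0.0287). Of 5 neuronal markers Syp rose by 0.57 (0.0277), and of 5 fibroblast and vessel markers 0 were called. In this fit 6.53% of all genes were called higher and 6.69% lower. The neuronal markers summed to 584, 729.9, 466.5 and 534 CPM at 0 Gy and 522, 666, 535.5 and 521 CPM at 2 Gy, lower at 2 Gy except in replicate number 3. The part of the markers in the result on the histone genes was not tested.

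The other genes of highest level did not pass the test in either fit. Hist1h2bc measured 104, 89, 94.6 and 101 CPM at 0 Gy and 103, 109, 153 and 98.1 CPM at 2 Gy, with a log2 fold change of 0.24 ± 0.13 with pairing (edgeR adjusted p = 0.232). It was higher at 2 Gy in 2 of 4 pairs, and replicate number 3 at 2 Gy was far above the rest. The H3 gene Hist2h3c2 measured 5.13, 6.15, 5.55 and 7.63 CPM at 0 Gy and 6.13, 6.78, 13.8 and 7.42 CPM at 2 Gy, with 0.44 ± 0.21 (edgeR adjusted p = 0.195). Here too replicate number 3 at 2 Gy held the highest value, while the other 3 pairs differed by less. The H3 gene Hist1h3d measured 3.3, 1.82, 1.65 and 3.92 CPM at 0 Gy and 3.13, 3.83, 3.2 and 4.27 CPM at 2 Gy, with 0.50 ± 0.23 (edgeR adjusted p = 0.166).

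The ranges of the remaining abundant genes overlapped widely. The H1 gene Hist1h1e measured 9.05, 8.01, 4.48 and 10.9 CPM at 0 Gy and 10.9, 11.7, 3.01 and 13.1 CPM at 2 Gy. The H2A gene Hist3h2a measured 10.3, 7.96, 11.1 and 9.98 CPM at 0 Gy and 9.06, 12.3, 16.6 and 9.98 CPM at 2 Gy, and the H2A gene Hist1h2ac 2.21, 1.68, 1.43 and 2.61 CPM and 2.86, 2.45, 2.12 and 2.26 CPM. The H2B gene Hist1h2bn measured 2.09, 2, 1.4 and 1.93 CPM at 0 Gy and 1.84, 3.66, 1.7 and 1.85 CPM at 2 Gy, where replicate number 2 alone was high. Among the tested genes outside these, the ends of the range were Hist3h2ba, an H2B gene with a log2 fold change of 0.87 ± 0.28 with pairing (edgeR adjusted p = 0.068), and the H3 gene Hist1h3c with -1.16 ± 0.37 (edgeR adjusted p = 0.0688). Both were chosen after their values were seen as the ends of the range.

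Over the 38 tested genes the median log2 fold change was 0.15 without pairing and 0.18 with it, and 27 and 25 of them had a positive value. The median of all tested genes was close to 0 in both fits. With the correction for GC content and length added to the pairing the median of the histone genes was -0.06, with 17 of 38 positive. By kind of 3′ end, the median with pairing was 0.21 for 19 genes with an extended end, 0.08 for 10 with a stem-loop end and -0.03 for 9 with neither. By family it was -0.01 for H1, 0.01 for H2A, 0.21 for H2B, 0.42 for H3 and 0.11 for H4.

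**Figure D4:**
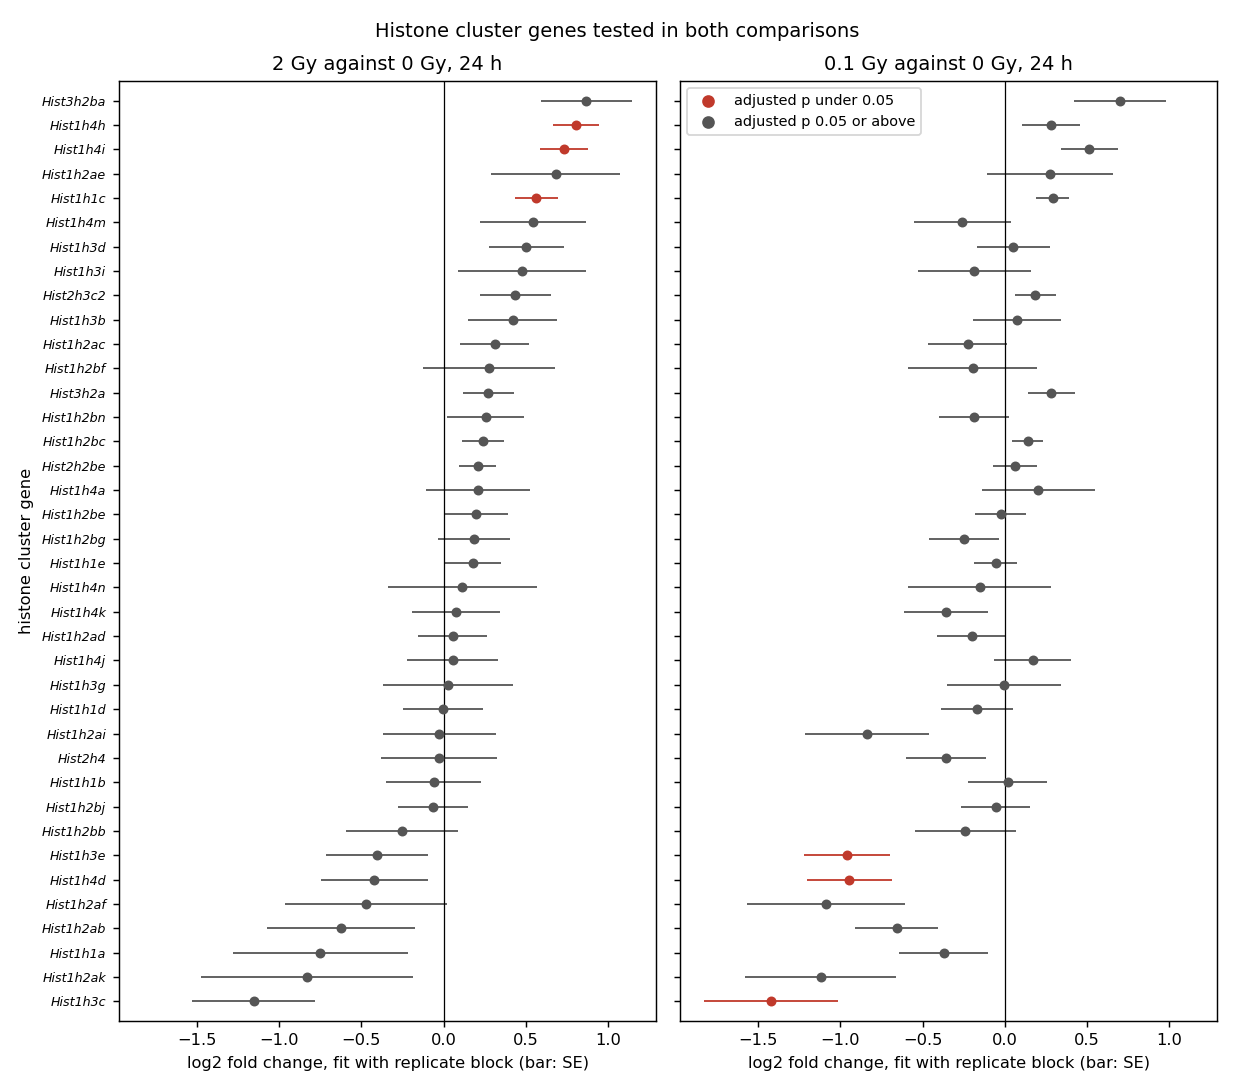
Log2 fold change (point) and SE (bar) of the 38 histone cluster genes tested in both 24 h comparisons with 0 Gy, from the fit with the replicate block, ordered by the value at 2 Gy. Red marks an adjusted p under 0.05, which 3 genes reached with higher levels at 2 Gy and 3 other genes with lower levels at 0.1 Gy.

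At 6 h after 2 Gy no histone gene passed the test in either fit. Of 39 tested genes 0 were called, beside 0% of 15994 genes in each direction with and without pairing; with pairing 3 of the 39 had an unadjusted p under 0.05, beside 6.88% of all genes. DESeq2 called 0 of 58, beside 0.00333% of all genes lower, and with the block 0 of 19, beside 0.414% higher and 0.0654% lower. Corrected for GC content and length in the blocked fit, 0 were called, beside 0.581% higher and 0.138% lower, and for 0 genes the groups did not overlap, beside 0.463% higher and 0.707% lower. Hist1h1c measured 194, 382, 134 and 229 CPM at 0 Gy, 159, 388, 145 and 198 CPM at 0.1 Gy and 206, 402, 131 and 174 CPM at 2 Gy. The doses overlapped fully, and the spread between replicate numbers was wider than that between doses. The log2 fold change of 2 Gy against 0 Gy at 6 h was -0.07 ± 0.09 with pairing for Hist1h1c, -0.29 ± 0.16 for Hist1h4i and -0.20 ± 0.13 for Hist1h4h. Hist1h4i measured 13.9, 17.6, 7.7 and 16.6 CPM at 0 Gy, 11.53, 17.5, 7.73 and 11.8 CPM at 0.1 Gy and 13.4, 14.5, 8.01 and 8.74 CPM at 2 Gy. Hist1h4h measured 11.8, 11.1, 4.51 and 10.9 CPM at 0 Gy, 10.5, 9.34, 3.69 and 8.73 CPM at 0.1 Gy and 10.4, 9.23, 5.03 and 7.82 CPM at 2 Gy. For both H4 genes the lowest values came from replicate number 3 at each dose. The median log2 fold change of the 39 genes was 0.06 without pairing and 0.08 with it, and 0.16 with 32 positive values when the correction for GC content and length was added to the pairing.

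The response to 2 Gy differed between the times for the same 3 genes when libraries were paired by number. The difference of the log2 fold changes, 24 h minus 6 h, was 0.64 ± 0.17 for Hist1h1c (edgeR adjusted p = 0.0471), 1.03 ± 0.23 for Hist1h4i (edgeR adjusted p = 0.0384) and 1.02 ± 0.19 for Hist1h4h (edgeR adjusted p = 0.0335). These 3 of 43 tested genes are 6.98%, beside 3.55% of 16866 genes with a positive difference, and 0 histone genes were called with a negative one, beside 3.23%. Without pairing 0 were called, beside 0% in each direction. With the correction for GC content and length, Hist1h4i alone kept an adjusted p under 0.05 (0.0385, edgeR with the replicate block), beside 1.43% of all genes with a positive and 0.949% with a negative difference. DESeq2 with the block called the same 3 genes of 11, beside 8.78% and 10.6% of all genes, and without it 0 of 59, beside 0% and 0.0125%. Leaving out replicate number 1 or 2 from the blocked fit left 0 calls, beside 0% of all genes, leaving out 3 gave 3, beside 23.4%, and leaving out 4 gave 2, beside 0.814%.

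At 24 h after 0.1 Gy the H3 genes Hist1h3c and Hist1h3e and the H4 gene Hist1h4d fell in the fit with pairing, and no histone gene rose. Without pairing 0 of 42 tested genes were called, beside 0% of 16183 genes in each direction, and 2 of the 42 had an unadjusted p under 0.05, beside 1.49% of all genes. With pairing 3 of 42 were called lower, which is 7.14%, beside 4.5% of all genes, and 0 were called higher, beside 2.34%. An unadjusted p under 0.05 was then found for 10 of the 42, beside 28.05% of all genes. The oligodendrocyte lineage markers summed to 566, 815, 612 and 428 CPM at 0.1 Gy, above 0 Gy in 4 of 4 pairs. The neuronal markers summed to 584, 729.9, 466 and 534 CPM at 0 Gy and 518, 612, 465 and 478 CPM at 0.1 Gy, below 0 Gy in 4 of 4 pairs. With pairing Olig1 of 7 tested oligodendrocyte lineage markers, Trem2 of 8 microglial markers and Syp of 6 neuronal markers rose, Map2 fell, and 0 of 9 astrocyte and 0 of 6 fibroblast and vessel markers were called. Their part in the result was not tested.

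Hist1h3c measured 1.04, 0.745, 0.992 and 0.522 CPM at 0 Gy, 0.362, 0.384, 0.104 and 0.451 CPM at 0.1 Gy and 0.681, 0.312, 0.188 and 0.334 CPM at 2 Gy. All values at 0.1 Gy were below those at 0 Gy, and replicate number 3 was lowest at both doses above 0 Gy. The log2 fold change of 0.1 Gy against 0 Gy was -1.42 ± 0.41 with pairing (edgeR adjusted p = 0.04999) and -1.38 ± 0.45 without (edgeR adjusted p = 0.944). Without 1 replicate number the paired value of Hist1h3c lay between -1.80 (without 4) and -0.90 (without 3). Its levels rest on few reads, between 4 and 51 counts per library.

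Hist1h3e measured 2.17, 0.699, 1.28 and 1.04 CPM at 0 Gy, 1.24, 0.454, 0.469 and 0.589 CPM at 0.1 Gy and 1.43, 1.07, 0.565 and 0.779 CPM at 2 Gy. It was lower at 0.1 Gy in 4 of 4 pairs, but the groups overlapped, since replicate number 1 was high at both doses. Its log2 fold change was -0.96 ± 0.26 with pairing (edgeR adjusted p = 0.0444) and -0.96 ± 0.46 without (edgeR adjusted p = 0.944).

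Hist1h4d measured 2.29, 0.978, 1.58 and 0.888 CPM at 0 Gy, 1.03, 0.663, 0.599 and 0.658 CPM at 0.1 Gy and 1.36, 1.16, 0.565 and 1.08 CPM at 2 Gy. It too was lower at 0.1 Gy in 4 of 4 pairs, with groups that overlapped through replicate number 1. Its log2 fold change was -0.95 ± 0.26 with pairing (edgeR adjusted p = 0.0447) and -0.98 ± 0.37 without (edgeR adjusted p = 0.944). With the correction for GC content and length the calls of Hist1h3c and Hist1h3e were kept and that of Hist1h4d was lost, with a log2 fold change of -0.92 (adjusted p = 0.0614, edgeR with the replicate block), beside 0.538% of all genes called lower and 1.35% higher. DESeq2 with the block gave these 3 genes no adjusted p, since its own filter removed them, and called Hist1h1c higher (adjusted p = 0.0489), beside 6.33% of all genes higher and 8.38% lower. Without the block DESeq2 called 0 of 56, beside 0% of all genes. In the blocked fit, leaving out replicate number 1 gave 2 calls, beside 7.18% of all genes in either direction, leaving out 3 gave 1, beside 23.2%, and leaving out 2 or 4 gave 0, beside 0.13% and 0.0987%. None of these calls was Hist1h3c, Hist1h3e or Hist1h4d, whose edgeR adjusted p without 1 replicate number lay between 0.0735 and 0.216.

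Groups that did not overlap were found at 0.1 Gy and 24 h for 1 of the 42 genes, Hist1h3c, beside 0.544% of all genes in this direction and 0.568% in the other. The median log2 fold change of the 42 genes was -0.18 in both fits, with 15 positive and 27 negative values, and -0.37 with the block and the correction for GC content and length. It was 0.06 for the 21 genes with an extended end, -0.20 for the 11 with a stem-loop end and -0.36 for the 10 with neither, all with pairing. RNAs that carry no poly(A) tail were also called in this comparison. Of 9 such RNAs 4 were tested in this comparison, and all 4 of them (Rmrp and Rpph1, the RNAs of the ribonucleases MRP and P, Rn7sk, which regulates transcription elongation, and the Y RNA Rny3) fell with pairing, beside 4.5% of all genes, and 0 did so without, beside 0%. Their log2 fold changes were -1.5, -1.29, -1.02 and -1.57 (edgeR adjusted p = 0.0226, 0.0451, 0.0268 and 0.0296). The summed level of the 9 RNAs was 153, 56.2, 80.7 and 26.1 CPM at 0 Gy, 70.1, 29.3, 18.2 and 26.2 CPM at 0.1 Gy and 126, 107, 10.8 and 56.2 CPM at 2 Gy. The replicate numbers 1, 2 and 3 were lower at 0.1 Gy than at 0 Gy, and number 4 was about equal. Terc, Rprl1, Rprl2 and Rprl3 were at or near 0. The part of the RNAs without a tail in the result on the histone genes was not tested.

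At 6 h after 0.1 Gy 0 of 40 tested histone genes were called in either fit, beside 0% of 16020 genes in each direction. With pairing 2 of the 40 had an unadjusted p under 0.05, beside 3.97% of all genes, DESeq2 called 0 of 58 with or without it, and the groups overlapped for all 40, beside 0.162% of all genes higher and 0.212% lower without overlap. The median log2 fold change was 0.01, and 0.09 with pairing and the correction. At 24 h the doses of 2 Gy and 0.1 Gy were compared directly, and 0 of 37 tested genes were called in either fit, beside 0% of 16002 genes in each direction. With pairing 6 of the 37 had an unadjusted p under 0.05, beside 4.94% of all genes. DESeq2 called 0 of 48 without the block, beside 0.213% of all genes lower, and 0 of 37 with it, beside 0.0312% higher and 0.649% lower. Corrected for GC content and length, 0 were called, beside 0.0375% and 0.612%, and the groups overlapped for all 37, beside 0.181% of all genes higher and 1.06% lower without overlap. The median log2 fold change of 2 Gy against 0.1 Gy was 0.27 without pairing and 0.25 with it, and 30 and 29 of the 37 values were positive. Hist1h1c differed by 0.27 ± 0.10 (edgeR adjusted p = 0.882), Hist1h4h by 0.50 ± 0.23 (edgeR adjusted p = 1) and Hist1h4i by 0.20 ± 0.25 (edgeR adjusted p = 1), all with pairing. The 3 comparisons at 24 h share libraries, so their values are given side by side only.

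Between 6 h and 24 h without irradiation, 0 of 41 tested histone genes were called in the fit without pairing, beside 3.24% of 15887 genes higher and 3.46% lower at 24 h. The calls with the replicate block differ from this and are given in the closing section, since replicate number 3 correlated weakly between the times. Of the 41 genes 6 had an unadjusted p under 0.05, beside 24.7% of all genes, and DESeq2 called 1 of 42, Hist3h2a, beside 6.6% of all genes higher and 5.46% lower. Hist3h2a measured 3.02, 6.99, 3.19 and 4.9 CPM at 6 h and 10.3, 7.96, 11.1 and 9.98 CPM at 24 h, and the groups did not overlap, beside 7.82% of all genes that were higher and 7.44% that were lower without overlap. Its log2 fold change was 1.10 ± 0.29 (edgeR adjusted p = 0.0553), and without 1 of 3 libraries (replicate number 2 or 3 at 6 h, or 3 at 24 h) 1 histone gene was called, beside 5.13%, 1.74% and 18.6% of all genes. Hist1h1e measured 4.61, 7.15, 1.79 and 3.82 CPM at 6 h and differed by 0.88 ± 0.42 (edgeR adjusted p = 0.232). Hist1h2be, an H2B gene which shares transcript sequence with Hist1h1e, measured 9.81, 21, 9.06 and 16.4 CPM at 6 h and 27.1, 27.3, 11.2 and 41.5 CPM at 24 h, with 0.91 ± 0.40 (edgeR adjusted p = 0.198). Values below 0 were found for several genes of high level, none of which passed the test. The log2 fold change was -0.90 ± 0.31 for Hist1h4h, -0.75 ± 0.27 for Hist1h4i, -0.30 ± 0.15 for Hist1h2bc and -0.24 ± 0.29 for Hist1h1c (edgeR adjusted p = 0.116, 0.126, 0.252 and 0.655), and Hist1h2bc measured 114, 136, 91.3 and 129 CPM at 6 h. The sign for Hist1h1c was not stable, with 0.084 after the correction for GC content and length in the paired fit and up to 0.11 without 1 library. The other abundant genes did not pass the test either. Hist2h3c2 measured 6.34, 7.65, 5.11 and 7.98 CPM, Hist1h3d 1.64, 2.65, 1.15 and 2.15 CPM, Hist1h2ac 1.19, 3.35, 1.15 and 1.22 CPM and Hist1h2bn 1.54, 2.6, 1.66 and 1.81 CPM at 6 h. Their log2 fold changes were -0.16, 0.47, 0.17 and -0.06 (edgeR adjusted p between 0.48 and 0.93).

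The summed level of all 65 genes at 24 h was 471, 391, 339.7 and 452 CPM at 0 Gy, 425, 500.3, 437 and 515 CPM at 0.1 Gy and 531, 548, 608 and 499 CPM at 2 Gy. Every library at 2 Gy was above every library at 0 Gy. Hist1h1c is the largest term of this sum, and without it the sums at 24 h were 231, 196, 184 and 241 CPM at 0 Gy and 227, 251, 283 and 249 CPM at 2 Gy, which overlapped. By kind of end, the genes with a stem-loop end summed to 20.9, 16.4, 15.1 and 18.3 CPM at 0 Gy, 14, 21, 11.51 and 20.6 CPM at 0.1 Gy and 20.8, 25.8, 18.3 and 21.3 CPM at 2 Gy, also with overlap.

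Other genes of the S phase, among them genes that replicate DNA or supply its building blocks, fell at 24 h after 2 Gy in the same libraries. Of 43 S phase genes 33 fell at 24 h after 2 Gy with pairing, beside 6.69% of all genes. None rose, and the median log2 fold change was -0.76. In edgeR without pairing 0 passed, beside 0% of all genes. DESeq2 without the block called 0.711% of all genes lower, and its calls in this list are not given here. The study itself reported Ccne2, Cdc6 and Hells of this list, among others, as lower at this dose and time. The summed level of the 43 genes was 1117, 1331, 1196 and 1087 CPM at 0 Gy and 707, 694, 781 and 787 CPM at 2 Gy, with no overlap. After 0.1 Gy 6 of the 43 fell with pairing (median -0.18), beside 4.5% of all genes, and at 6 h 0 were called after either dose. The interaction of 2 Gy and time was negative for 15 of the 43 with pairing, beside 3.23% of all genes. The difference between the S phase genes and the histone genes was not tested.

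**Figure D5:**
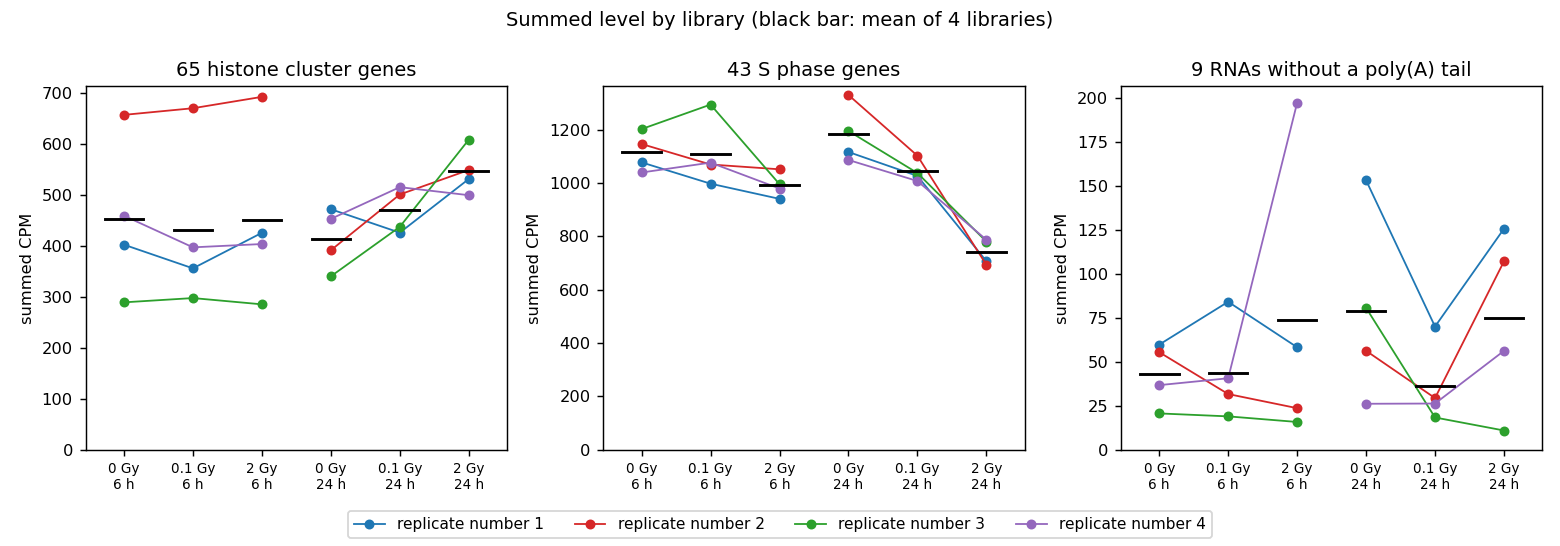
Summed level (CPM, linear axis from 0) in each library of the 65 histone cluster genes, of 43 S phase genes and of 9 RNAs without a poly(A) tail, with lines joining libraries of one replicate number within a time and black bars for means. At 24 h the histone sum was higher and the S phase sum lower at 2 Gy than at 0 Gy without overlap, while the RNAs without a tail ranged from 10.8 to 197.5 between libraries.

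Genes that transcribe, process and degrade histone mRNA were lower or did not pass the test at 24 h after 2 Gy. Of 26 such genes 9 fell with pairing, beside 6.69% of all genes, and 0 rose, beside 6.53%. None passed in edgeR without pairing, where 0% of all genes did. Npat, the coactivator of histone genes in histone locus bodies, had a log2 fold change of -0.67 (edgeR adjusted p = 0.0117) and Casp8ap2, another protein of these bodies, -0.67 (0.022). Slbp, which binds the stem-loop shown above, had -0.48 (0.0176), from 35.3 ± 3.27 CPM at 0 Gy to 25.4 ± 4.32 CPM at 2 Gy (SD, n = 4). Eri1, an exonuclease that trims histone mRNA at the stem-loop, had -0.63 (0.0149), and the cyclin gene Ccne2, whose product activates Cdk2 at the start of S phase, -1.53 (0.00144), from 21.6 ± 8.98 CPM to 7.18 ± 1.71 CPM. Cdk2 itself had -0.60 (0.0161). The other 3 that fell were Cstf2, Tut4 and Ccne1. After 0.1 Gy Npat, Casp8ap2, Tut4 and Ccne2 fell with pairing, beside 4.5% of all genes, and none rose. In the interaction of 2 Gy and time 4 were negative (Npat, Eri1, Tut4 and Ccne2), beside 3.23% of all genes, and 1 positive (Mif4gd), beside 3.55%.

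Histone chaperones, the proteins that carry new histones to DNA, fell in 5 of 20 cases at 24 h after 2 Gy with pairing. The share of all genes was 6.69%, and 0 chaperones rose. Without pairing 0 passed in edgeR, and the values below are with pairing. Asf1b had a log2 fold change of -0.81 (edgeR adjusted p = 0.00624) and Chaf1b, a subunit of chromatin assembly factor 1, -0.95 (0.0185). Hat1, which acetylates new H4, had -0.53 (0.0305), Mcm2 -0.70 (0.0103) and Atrx -0.40 (0.0356). After 0.1 Gy Atrx alone fell with pairing, beside 4.5% of all genes. The S phase list shares Casp8ap2, Ccne2 and Slbp with the list of histone mRNA genes and Chaf1b, Mcm2 and Nasp with the chaperones.

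Histone genes outside the clusters changed in both directions. Their list holds 11 genes of histone variants, 1 of which, H2afx, also has a transcript with the stem-loop motif. Of the 11 genes 3 rose and 1 fell at 24 h after 2 Gy with pairing, beside 6.53% and 6.69% of all genes. Without pairing 0 passed in edgeR, and the values for 2 Gy below are with pairing. H2afj rose by 0.91 on the log2 scale (edgeR adjusted p = 0.00507), H1fx by 0.64 (0.0158) and H3f3b, a gene of H3.3, by 0.33 (0.0451), while Cenpa, the centromeric H3 variant, had -0.56 (0.0148). H2afj and H1fx also rose after 0.1 Gy with pairing, beside 2.34% of all genes, and none fell. Between 6 h and 24 h at 0 Gy, without pairing, where 3.24% of all genes were higher and 3.46% lower, H1f0 rose by 0.90 (edgeR adjusted p = 0.0306) and H2afx and H3f3b had -0.78 and -0.70 (0.0374 and 0.0217).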

How the data were processed

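RNA of primary mouse astrocytes was poly(A) selected and sequenced as paired reads. The authors deposited whole-number counts per gene, 1 table per library, not normalised or pooled; the build is mm10 by the submitters' processing notes, and aligner and counter are not given in the sources used here. Symbols, transcripts and 3′ ends came from GENCODE M21. Hist1h2bh and Hist1h2bm were not analysed here. The members and gene lists were chosen with earlier results of these data known. Counts were fitted in R 4.3.3 with edgeR 4.0.16 (TMM, filterByExpr, quasi-likelihood test, Benjamini-Hochberg adjustment over all tested genes, called at an adjusted p under 0.05) on the 8 libraries compared, 16 for the interaction. Alternatives are in the closing section. DESeq2 1.42.0 was an alternative. The correction for GC content and length used the GC content of the longest GENCODE M21 transcript of a gene and its counted length. For genes counted over other bounds, such as Hist1h4d, this GC content is not that of the counted bases. Libraries were paired by replicate number. No label states that equal numbers share an isolation of cells, and the pairing is inferred from the data. The correlation across genes of deviations from the group means was 0.54 to 0.927 for pairs in the dose comparisons and 0.0623 to 0.825 between the times. The calls with the block between the times are therefore given only in the closing section. Between the replicates of a group, 36 pairs in all, chi-square per degree of freedom was at least 25.9. On simulated counts for 2 Gy against 0 Gy at 24 h (15892 genes, 200 changed by 1.5 on the log2 scale) the fit without block called 36% of the changed genes and the fit with the block 93%, with 0 and 14 false calls. The counts were simulated from the fit with the block, so its lead was built in. It says nothing on whether the pairing holds. Of genes to name, the 2 of highest level per length in each family and all that were called in a dose comparison or the interaction are described, with up to 6 called genes per list. Intervals for counts of 0 use 3 counts and cover counting error only. The p-values measure the spread between these libraries.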

Additional observations from a re-analysis of the deposited data

Results flagged for a closer look

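In the groups of 4 libraries, 6 of 84 values had 1 library apart from the other 3 by Dixon's ratio; chance alone flags about 1 group in 20. At 0 Gy and 6 h these were Hist1h2ac, highest in replicate number 2 at 3.35 CPM, and Hist1h4h, lowest in replicate number 3 at 4.51 CPM. At 0.1 Gy and 24 h it was Hist1h4d in replicate number 1 at 1.03 CPM, which is the library through which its groups overlap. At 2 Gy and 24 h Hist1h2bn was highest in replicate number 2 at 3.66 CPM, and Hist1h4i and Hist2h3c2 were highest in replicate number 3 at 20.5 CPM and 13.8 CPM. That library also held the highest Hist1h2bc and Hist1h4h of its group, and its summed level of RNAs without a poly(A) tail was the lowest of all libraries at 10.8 CPM.

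The response to 2 Gy differed between 24 h and 6 h, by the test of the interaction with the replicate block, for Hist1h1c (0.64 on the log2 scale), Hist1h4h (1.02) and Hist1h4i (1.03). Their edgeR adjusted p were 0.0471, 0.0335 and 0.0384, and none passed without the block.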

How the results depend on the processing

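The comparisons were made without pairing, with the replicate block, with DESeq2 instead of edgeR, with library size alone in place of TMM, with no filter or at least 10 counts in every library, with a correction for GC content and length, in 1 fit of all 24 libraries, and with libraries left out. The combinations of the block with DESeq2, with library size alone, with no filter, with a replicate number left out and with a limit of 1 on the size of the log2 fold change were chosen after seeing the data. Without the block, 0 histone genes were called in the dose comparisons and the interaction in every one of these fits.

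The calls turned on the pairing. With the replicate block the number of histone genes called was 3 for 2 Gy against 0 Gy at 24 h, 3 for 0.1 Gy against 0 Gy at 24 h, 3 for 24 h against 6 h and 3 for the interaction, and it stayed at 0 for the other comparisons, beside 13.2%, 6.84%, 15.3% and 6.78% of all genes in either direction. With the block and DESeq2 these counts were 3, 1, 5 and 3 (all genes 17%, 14.7%, 18.6% and 19.4%), with the block and library size alone 3, 5, 3 and 3 (13.8%, 11.1%, 14.4% and 7.41%) and with the block and no filter 5, 6, 7 and 3 (10.3%, 7.69%, 12% and 8.38%). Without the filter 1 was also called for 2 Gy at 6 h (0.871%) and 1 for 2 Gy against 0.1 Gy (0.791%). With the block and the correction for GC content and length they were 0, 2, 5 and 1 (3.51%, 1.89%, 26.6% and 2.38%), and with the fold limit added to the block 0, 1, 1 and 2 (0.812%, 0.21%, 6.53% and 1.2%). Leaving out a replicate number from the blocked fit gave 0 to 5 calls for 2 Gy at 24 h (0.432% to 33.1% of all genes), 0 to 2 for 0.1 Gy at 24 h (0.0987% to 23.2%), 0 to 9 for the times (3.71% to 45.4%; 4 and 7.09% without number 2) and 0 to 3 for the interaction (0% to 23.4%). The highest share of all genes came from leaving out number 3 in these 4 comparisons. Between the times, where the replicate numbers deviated together less, the 3 genes called with the block were Hist3h2a (log2 fold change 1.17, edgeR adjusted p = 0.0195), Hist1h2be (0.86, 0.0295) and Hist1h1e (0.96, 0.0288), each higher at 24 h in 4 of 4 pairs. DESeq2 with the block called these 3 and also Hist1h4h and Hist1h4i lower at 24 h (DESeq2 adjusted p = 0.028 and 0.0434), which edgeR with the block did not (0.0696 and 0.0815). DESeq2, the limit of 10 counts and the fit of all 24 libraries each called 1 gene there without the block (12.1%, 7.69% and 14.3% of all genes), and leaving out 1 library gave 0 to 1 (1.04% to 18.6%).

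The median log2 fold change of the tested genes moved when libraries were left out. Without 1 library it was -0.085 to 0.28 for 2 Gy at 6 h, -0.26 to 0.25 for 0.1 Gy at 6 h and 0.15 to 0.39 for 2 Gy against 0.1 Gy, and with the block and without replicate number 2 it was 0.49 between the times. Without Hist1h1c the mean summed level was 216.5, 207.1 and 223.2 CPM at 6 h and 212.9, 224.5 and 252.6 CPM at 24 h, for 0, 0.1 and 2 Gy.

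Added to the block, the correction for GC content and length turned the sign of the log2 fold change in 10 of 38 tested genes for 2 Gy at 24 h, 7 of 39 for 2 Gy at 6 h, 5 of 42 and 6 of 40 for 0.1 Gy at 24 h and 6 h, 10 of 41 between the times, 14 of 43 for the interaction and 0 of 37 for 2 Gy against 0.1 Gy. Of these, 0 had been called with the block. The median went from 0.10 to 0.42 between the times and from 0.06 to -0.32 for the interaction. With the block and the correction for GC content and length the log2 fold change between the times was 0.084 for Hist1h1c, 0.42 for Hist1h2bn and 0.21 for Hist2h3c2, that of 2 Gy at 24 h was -0.14 for Hist1h2bn and that of 2 Gy at 6 h was 0.021 for Hist1h1c. Without 1 library Hist1h1c ranged from -0.44 to 0.11 between the times and from -0.46 to 0.29 for 2 Gy at 6 h, and with the block and without 1 replicate number from -0.29 to 0.14 and from -0.13 to 0.044. Hist1h2bn ranged without 1 library from -0.046 to 0.42 for 2 Gy at 24 h and from -0.12 to 0.15 between the times, where the block without replicate number 2 gave 0.097 and without 3 gave 0.0199. The cause of these changes was not tested.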
